A study of Mus musculus with 4 samples.

Results

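The 39 protein-coding Hox genes of clusters A to D were examined in stromal cells sorted from the mouse prostate, out of 25737 genes with a summed value. Every Hox symbol of 1 to 13 in a cluster that matched the rule was found, as 52 deposited transcripts. The 4 libraries came from adult C57BL/6 mice. In 2 of them (distal 2 and distal 3) the cells were from distal prostatic ducts, toward the tips of the glands, and in 2 (proximal 2 and proximal 3) from proximal ducts, next to the urethra. All were sorted the same way, as negative for lineage markers, CD24 and CD49f (an integrin) and positive for Sca-1, a glycoprotein found on many fibroblasts and mesenchymal progenitors. The labels name the libraries 2 and 3 in both regions and do not say whether a number stands for an animal, a pool or a day. The sources used here give neither lobe, age in weeks nor number of animals, and do not say whether animals were pooled. Nothing in the labels says that the libraries came from separate animals, so p-values are set against library-to-library spread that may be technical.

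Hox genes encode homeodomain transcription factors and lie in 4 clusters on different chromosomes. Members at the same place in different clusters form a paralog group, and the order along a cluster follows the order of expression along the body axis, with the highest-numbered groups in the most caudal tissues. The urogenital sinus, from which the prostate develops, is such a tissue, and loss of group 13 genes in the mouse alters prostate growth and branching. Adult fibroblasts are known to keep a Hox pattern that reflects where in the body they came from.

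Sequences upstream of 4 starts are shown for 2 paralog pairs, group 13 and group 11 of clusters A and D, whose members turned out to behave differently between libraries. The group 10 pair did so too, and its runs are not shown. Each run holds the 250 bases before a RefSeq start (GRCm38.p6, the assembly of mm10), read 5′ to 3′ on the gene's strand. Capitals mark motif matches. The motifs were TATAAA, the TATA box core, and the promoter element CCAAT. A further pair are cores bound by group 13 proteins. One of these is TCGTAAA. The other is CAATAAA. Both strands were searched.
Hoxa13 (chr6:52260881-52261130, minus strand): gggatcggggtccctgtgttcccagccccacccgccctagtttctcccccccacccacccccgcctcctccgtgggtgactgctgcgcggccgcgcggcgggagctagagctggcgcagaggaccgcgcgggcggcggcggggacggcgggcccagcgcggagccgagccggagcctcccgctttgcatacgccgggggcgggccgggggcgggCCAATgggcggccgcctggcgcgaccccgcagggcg
Hoxd13 (chr2:74667975-74668224, plus strand): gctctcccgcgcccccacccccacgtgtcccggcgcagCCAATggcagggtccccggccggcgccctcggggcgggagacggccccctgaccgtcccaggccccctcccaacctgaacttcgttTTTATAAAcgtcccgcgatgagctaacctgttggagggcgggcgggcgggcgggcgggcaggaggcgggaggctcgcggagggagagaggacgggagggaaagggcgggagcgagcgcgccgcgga
Hoxa11 (chr6:52245811-52246060, minus strand): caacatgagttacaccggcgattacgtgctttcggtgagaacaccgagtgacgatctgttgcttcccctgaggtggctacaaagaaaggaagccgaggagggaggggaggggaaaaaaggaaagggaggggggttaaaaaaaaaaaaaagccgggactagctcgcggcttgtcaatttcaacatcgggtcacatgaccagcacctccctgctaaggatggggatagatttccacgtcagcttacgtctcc
Hoxd11 (chr2:74679308-74679557, plus strand): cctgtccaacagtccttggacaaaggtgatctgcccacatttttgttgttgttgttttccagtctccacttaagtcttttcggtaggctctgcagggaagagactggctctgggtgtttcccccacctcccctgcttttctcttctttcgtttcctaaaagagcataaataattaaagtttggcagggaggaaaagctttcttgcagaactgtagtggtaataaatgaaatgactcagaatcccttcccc

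The upstream runs of Hoxa13 and Hoxd13 were rich in G and C, at 80.0% and 74.4%, with 35 and 31 CpG dinucleotides. Those of Hoxa11 and Hoxd11 held 52.0% and 44.8% G and C, with 13 and 2 CpG. A second Hoxd11 start in the table, not shown, had 60.4% and 20 CpG in its upstream run. Over 32817 upstream runs of the same length the medians were 52.4% and 6 CpG. Both group 13 runs held a CCAAT, as did 33.8% of all runs. Hoxd13 also held overlapping TATAAA matches on both strands, a motif found in 12.4% of all runs. None of the 4 motifs was found in the runs shown for Hoxa11 and Hoxd11. In the group 10 pair, 1 Hoxa10 run held a TATAAA and a CCAAT and another held neither, while the Hoxd10 run held a CCAAT. Neither group 13 core was found in any of the 4 runs shown. TCGTAAA occurred in 0.478% of all runs. For the other core the share was 4.2%.  The RefSeq table held 24 starts of 22 Hox genes, among which 14 had a CCAAT and 4 a TATAAA.

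Expression was concentrated at the caudal ends of clusters A and D. Values are FPKM (fragments mapped to a transcript, scaled by its length and by the library's mapped fragments), summed over the transcripts of a gene, so levels of different genes can be compared per length. Groups 10 to 13, with 12 genes, held between 89.3% (proximal 2) and 94.7% (distal 3) of the summed Hox FPKM. Of all 39 genes, 6 reached 1 FPKM in every library, namely Hoxa10, Hoxa11, Hoxb2, Hoxd10, Hoxd11 and Hoxd13. Another 4, Hoxa13, Hoxb6, Hoxb13 and Hoxd8, reached it in at least 2 libraries. The remaining 29 did not, and 22 genes stayed under 0.5 FPKM in all 4 libraries. In bulk samples, fewer cells of a type and less RNA per cell cannot be told apart.

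**Figure D1:**
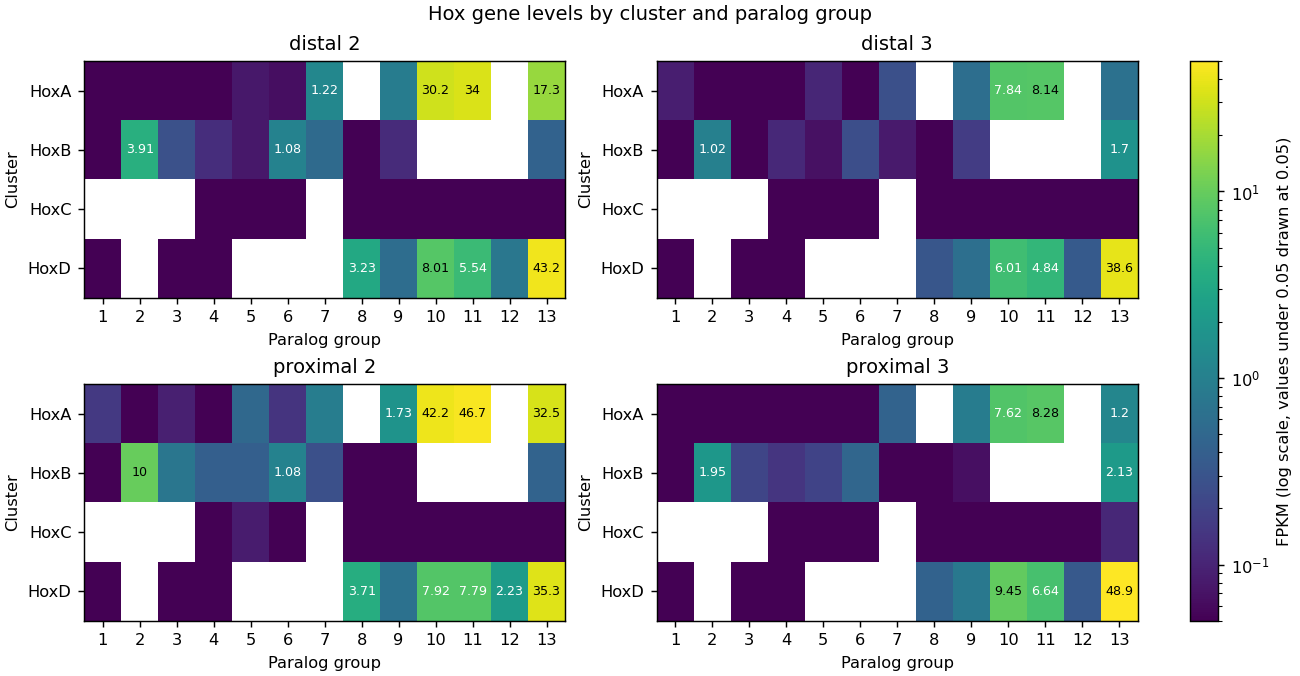
Each panel is 1 library, each row a Hox cluster and each column a paralog group. Colour gives FPKM on a log scale, values of at least 1 FPKM are printed, and white cells have no gene. The highest levels lie at groups 10 to 13 of HoxA and HoxD in all panels, Hoxd13 reaching 48.9 FPKM in proximal 3, and HoxC has no value of 1 FPKM.

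Cluster HoxC gave almost no signal. Its 9 genes, on chromosome 15, did not exceed 0.108 FPKM, the value of Hoxc13 in proximal 3. Hoxc6, Hoxc8, Hoxc11 and Hoxc12 were listed at 0 in every library. The HoxC sum was 0.0919 FPKM in distal 2, 0.0 in distal 3, 0.122 in proximal 2 and 0.131 in proximal 3. An exact 0 may not mean absent RNA in these files, though no Hox transcript had a failed status. Elob, a gene for a ubiquitin ligase subunit that cells use generally, had 109 FPKM in distal 2 and 162 FPKM in proximal 2 but was listed at 0 in both number 3 libraries. The low HoxC values covered all 9 genes and all 4 libraries.

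The anterior and middle groups were mostly low, Hoxb2 and Hoxd8 being the highest of them. Of the 23 genes in groups 1 to 8, 19 never reached 1 FPKM. Hoxb2, known for its part in hindbrain patterning, stood at 3.91 FPKM in distal 2, 1.02 in distal 3, 9.999 in proximal 2 and 1.95 in proximal 3. Both of its cluster neighbours were lower: Hoxb1 did not exceed 0.0349 FPKM and Hoxb3 did not exceed 0.758 FPKM. Hoxb6 had 1.08 FPKM in distal 2 and 0.260 in distal 3, against 1.08 in proximal 2 and 0.490 in proximal 3. Hoxd8, at the anterior edge of the expressed part of HoxD, had 3.23 FPKM in distal 2 and 0.317 in distal 3, against 3.71 in proximal 2 and 0.443 in proximal 3. The antisense gene Hoxb3os overlaps Hoxb2 and Hoxd3os1 overlaps Hoxd8, and the kit does not mark strand, so reads of these pairs cannot be told apart. Hoxb6 lies within the span of a further antisense gene, Hoxb5os, so the same limit holds for any stretch that both share. Hoxb5os was listed at 0 FPKM in distal 2 and distal 3, at 1.38 in proximal 2 and at 0.176 in proximal 3. Just outside the minimum of 1 FPKM in 2 libraries were Hoxa7 (highest 1.22 FPKM, in distal 2), Hoxa9 (highest 1.73 FPKM, in proximal 2) and Hoxd12 (highest 2.23 FPKM, in proximal 2).

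Hoxd13 was the steadiest of the strongly expressed members. Its protein, a regulator of digit and genital tubercle growth and of prostate ducts, is the most caudal of cluster D. The gene (ENSMUSG00000001819.4, chromosome 2, 74668310 to 74671599, plus strand, mm10) stood at 43.2 FPKM in distal 2, 38.6 in distal 3, 35.3 in proximal 2 and 48.9 in proximal 3. The regions overlapped, the distal mean being 40.9 ± 3.27 FPKM and the proximal mean 42.1 ± 9.62 FPKM (SD, n = 2 each). It ranked between 1327th (proximal 3) and 1839th (proximal 2) of all 25737 genes by FPKM. The deposited bounds were 33.8 to 36.8 FPKM in proximal 2 and 47.2 to 50.6 FPKM in proximal 3, so libraries of 1 region differed by more than their estimation error.

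Hoxd10 and Hoxd11, known from limb and kidney patterning, were lower but similarly even in the deposited values. Hoxd10 had 8.01 FPKM in distal 2 and 6.01 in distal 3, against 7.92 in proximal 2 and 9.45 in proximal 3. Hoxd11 had 5.54 FPKM in distal 2 and 4.84 in distal 3, against 7.79 in proximal 2 and 6.64 in proximal 3. For Hoxd11 both proximal values lay above both distal values. That was the case for 1 of 10 tested Hox genes, against 13% of all tested genes. Both distal values lay above both proximal values for 0 of 10, against 8.64%. In proximal 2, 11.2% of the Hoxd11 value came from a second transcript with a later start, which was listed at 0 in the other libraries. Between them, Hoxd12 stood at 0.772, 0.351, 2.23 and 0.340 FPKM in distal 2, distal 3, proximal 2 and proximal 3, and so was the low gap in an otherwise expressed stretch from Hoxd10 to Hoxd13. Hoxd9 followed at 0.586 to 0.798 FPKM.

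HoxA was expressed from the same groups but not at an even level. Hoxa10, known for uterine and male accessory gland identity, stood at 30.2 FPKM in distal 2, 7.84 in distal 3, 42.2 in proximal 2 and 7.62 in proximal 3. Hoxa11 (ENSMUSG00000038210.10, chromosome 6, 52242106 to 52245810, minus strand, mm10), which acts in kidney and reproductive tract development, had 34.0 FPKM in distal 2 and 8.14 in distal 3, against 46.7 in proximal 2 and 8.28 in proximal 3. Hoxa13 (ENSMUSG00000038203.18, chromosome 6, 52257694 to 52260880, minus strand, mm10), a regulator of the urogenital sinus and of digits, had 17.3 FPKM in distal 2 and 0.655 in distal 3, against 32.5 in proximal 2 and 1.20 in proximal 3. In all 3 genes both libraries numbered 2 were far above both libraries numbered 3, while the regions overlapped.

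**Figure D2:**
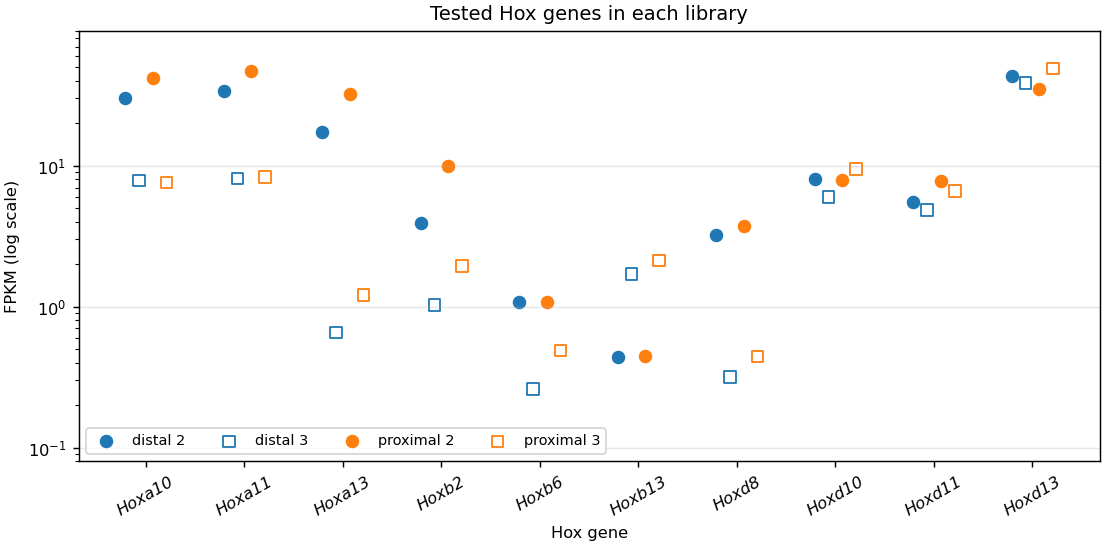
FPKM on a log axis for the 10 tested Hox genes, one point per library, with colour for region and marker shape for library number. Hoxa13 spans 0.655 to 32.5 FPKM with the number 2 libraries on top, Hoxb13 has the number 3 libraries on top, and Hoxd13 stays between 35.3 and 48.9 FPKM.

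Hoxa10, Hoxa11, Hoxa13, Hoxb2, Hoxb6 and Hoxd8 were higher in number 2 than in number 3 by more than 2 times in both regions. The share of all genes on this ratio scale was not computed. On the log2(FPKM + 1) scale, 5 of 10 tested Hox genes were at least 2-fold higher in number 2 in both regions, against 11.5% of all tested genes. Outside the tested genes the ratio exceeded 2 in both regions for Hoxd12 (2.20 and 6.57), Hoxa7 (4.50 and 2.09), Hoxb3 and Hoxb7. These are low values, Hoxb3 not exceeding 0.758 FPKM and Hoxb7 not exceeding 0.550 FPKM. For Hoxa13 the ratio was 26.4 in distal and 27.0 in proximal stroma. For Hoxa11 it was 4.18 and 5.64, for Hoxa10 3.85 and 5.54, for Hoxb2 3.83 and 5.13, for Hoxb6 4.15 and 2.21 and for Hoxd8 10.2 and 8.38. In Hoxd8, 1 transcript gave 51.0% of the value in distal 2 and 49.2% in proximal 2 but was listed at 0 in both number 3 libraries. Its only transcript above 0 in every library had 0.656 FPKM in distal 2 and 0.317 in distal 3, against 1.35 in proximal 2 and 0.258 in proximal 3. For Hoxd13 and Hoxd10 the direction differed between regions, at 1.12 and 0.722 and at 1.33 and 0.838, and for Hoxd11 the ratio was 1.14 and 1.17. These are comparisons of 1 library with 1 library and carry no test. The deposited bounds of Hoxa10 (both transcripts), Hoxa11, Hoxa13 and Hoxb2 in the number 2 libraries lay wholly above those in the number 3 libraries. So did those of Hoxd12, and those of 1 Hoxd8 and 1 Hoxa7 transcript, each listed at 0 in both number 3 libraries. The share of all transcripts with such bounds was not computed. For Hoxa13 the lower bound was 15.9 FPKM in distal 2 and the upper bound 1.59 FPKM in proximal 3.

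As a result the balance between the clusters changed with the library. The HoxA sum was 83.8 FPKM in distal 2, 17.8 in distal 3, 125 in proximal 2 and 18.5 in proximal 3. The HoxD sum was 61.4, 50.8, 57.6 and 66.6 FPKM in the same order. HoxA was thus 1.37 and 2.17 times HoxD in distal 2 and proximal 2, and HoxD was 2.86 and 3.60 times HoxA in distal 3 and proximal 3. Within group 13, Hoxd13 was 2.50 and 1.09 times Hoxa13 in the number 2 libraries and 58.9 and 40.6 times in the number 3 libraries. The 2 Hoxa10 transcripts kept similar shares, the longer-spanning one giving 72.8% (distal 2), 77.0% (distal 3), 61.9% (proximal 2) and 72.5% (proximal 3) of the gene's value.

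Transcripts in general were higher in the number 2 libraries, and those rich in G and C the more so. On the log2(FPKM + 1) scale the median over 11271 tested genes was 0.31 higher in number 2 in distal and 0.36 higher in proximal stroma. The median over the 10 tested Hox genes was 1.001 and 1.09. Number 2 was at least 2-fold higher in both regions, on that scale, for 5 of 10 Hox genes (Hoxa10, Hoxa11, Hoxa13, Hoxb2 and Hoxd8), against 11.5% of all tested genes. The reverse, number 3 at least 2-fold higher in both, held for 0 of 10, against 3.47%. Both number 2 libraries lay above both number 3 libraries for 6 of 10, against 50.4%. After median ratio scaling, which brought the median of all genes to between -0.01 and 0, Hoxa13 still differed by 3.23 and 3.57, Hoxa11 by 1.58 and 1.95 and Hoxa10 by 1.46 and 1.92 (log2, distal and proximal). Under the same scaling the sign turned for Hoxd11, to -0.16 and -0.17, and for Hoxd13 in distal stroma, to -0.22. In proximal stroma, Hoxd13 went from -0.46 to -0.88 and Hoxd10 from -0.23 to -0.61. Quantile normalization also turned Hoxd11, to -0.24 and -0.23, and left Hoxa13 at 3.04 and 3.78.

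GC content of the transcripts, examined after these values were seen, moved with the number. Across genes, which are not replicates and share the libraries, Spearman's rho between GC content and the number 2 minus number 3 difference was 0.188 in distal and 0.187 in proximal stroma. Median differences were 0.14 (distal) and 0.17 (proximal) for genes of 40 to 45% GC and 0.93 and 1.27 for the 53 genes above 65% GC. Hoxa13, at 68.1% GC, was among these 53. It exceeded their medians by 2.54 in distal and 2.66 in proximal stroma (log2), and 1.89% of them had a larger mean difference. Hoxa11 (53.4% GC) and Hoxa10 (53.9% GC) exceeded the medians of the 3046 genes between 50 and 55% GC by 1.62 and 1.99 and by 1.498 and 1.95. Hoxd8 (55.8% GC) exceeded the medians of genes between 55 and 60% GC by 1.22 and 1.155, and Hoxb2 (55.7% GC) by 0.81 and 1.35. Hoxd13, Hoxd10 and Hoxd11 had less GC, at 47.4%, 46.5% and 42.4%, and differed from the medians of like genes by between -0.73 and 0.14. The part of GC content in the HoxA values was otherwise not tested.

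**Figure D3:**
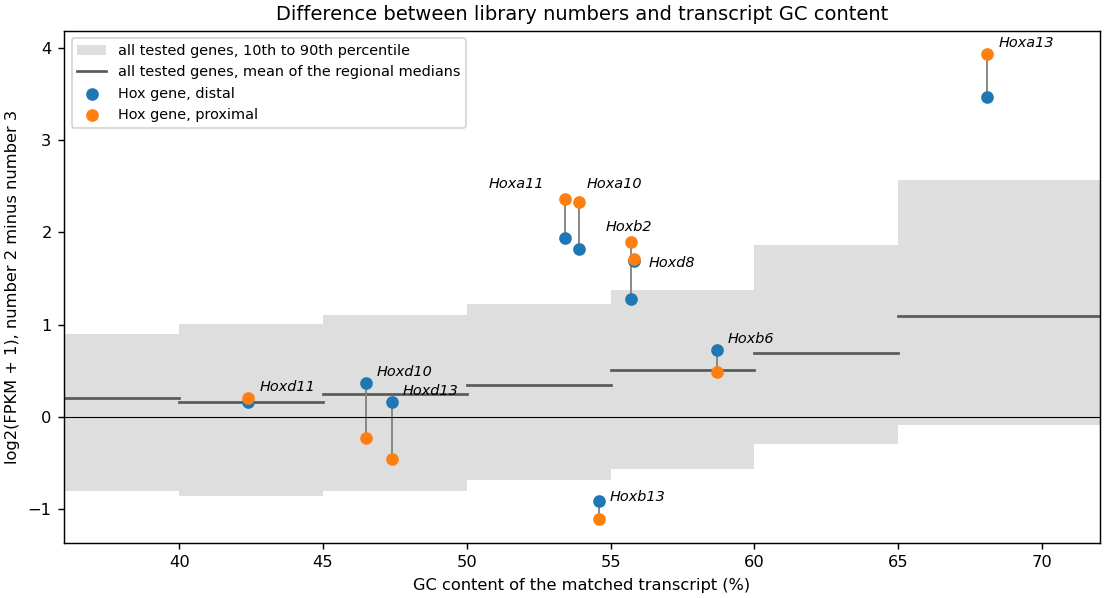
Number 2 minus number 3 on the log2(FPKM + 1) scale against transcript GC content, with a point per region for each tested Hox gene. Grey bands hold the 10th to 90th percentile of the mean difference of all tested genes in each GC interval and lines the typical value; Hoxa10, Hoxa11, Hoxa13 and Hoxd8 lie above their bands in both regions, Hoxb2 in proximal stroma only, Hoxb13 below, Hoxb6, Hoxd10, Hoxd11 and Hoxd13 within them, and the end intervals are drawn to the axis limits.

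By the smaller of its regional differences (3.47, in distal stroma), Hoxa13 was among 16 of 11271 tested genes, or 0.142%, that reached this value in both regions. Of these 16, 9 were listed at 0 in both number 3 libraries. Their GC content ran from 45.6% (Tmem243) to 58.8% (Tbc1d17), around the median of 50.6% over all tested genes. The other 6 beside Hoxa13, named after their values were seen, were Cebpb, Gna12, Ier5l, Marveld1, Nrg2 and Tbx2, with 57.0% to 67.2% GC. Cebpb, a transcription factor gene with a single exon, had 1323 FPKM in distal 2 and 1041 in proximal 2, but 41.95 in distal 3 and 31.7 in proximal 3. Tbx2, a T-box factor gene, stood at 29.3 and 36.1 FPKM against 1.71 and 2.12 FPKM.

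Hoxb13 ran the other way. This gene of the distal end of cluster B is best known from the epithelium of the prostate, and in these sorted stromal cells it stood at 0.440 FPKM in distal 2, 1.70 in distal 3, 0.448 in proximal 2 and 2.13 in proximal 3. Both number 3 values lay above both number 2 values, by 3.87 times in distal and 4.75 times in proximal stroma. The same order was found in 1 of 10 tested Hox genes and in 20.2% of all tested genes. Epithelial marker genes moved the same way. Of 11 luminal and basal epithelial markers, among them Epcam, Cdh1, Krt8, Krt18 and Krt5, 9 were higher in both number 3 libraries. They summed to 143 FPKM in distal 2 and 135 in proximal 2, against 243 in distal 3 and 666 in proximal 3, with none listed at 0. The part of epithelial RNA in the Hoxb13 values was not tested. For the HoxA genes, the summed level of 8 stromal markers was 5405 and 5609 FPKM in the number 2 libraries and 4731 and 6027 FPKM in the number 3 libraries. Dcn, the most abundant of them at 2353 to 3671 FPKM, weighed most in this sum. Of the 8, 3 (Pdgfra, Col1a1 and Col3a1) were higher in both number 2 libraries, against 50.4% of all tested genes. Another 2 (Lum and Vim) were higher in both number 3 libraries, against 20.2%. The sum over 5 smooth muscle markers was higher in the number 2 libraries, as the HoxA genes were. It was 305 FPKM in distal 2 and 271 in proximal 2, against 184 in distal 3 and 134 in proximal 3. Of these 5, 3 (Acta2, Tagln and Des) were higher in both number 2 libraries, against 50.4% of all tested genes. Cnn1 and Myh11 did not keep this order, and none of the 5 was listed at 0. The part of smooth muscle RNA in the HoxA values was not tested.

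No Hox gene passed the test between proximal and distal stroma. The comparison asks whether stroma at the ends of the ductal tree carries different positional genes. With limma on log2(FPKM + 1), 0 of 10 tested Hox genes passed an adjusted p of 0.05, as did 0% of all 11271 tested genes. At an unadjusted p under 0.05 there were again 0 Hox genes, against 3.16% of tested genes. The adjusted p was 0.99991 for each of the 10. Library number was not a term of this fit, so differences between numbers count as error in it and in the list results below. A fit with the number as a block is given among the alternatives in the closing section. All 10 estimates were above 0, as were 60.4% of tested genes, but quantile normalization turned Hoxb6, Hoxb13 and Hoxd8 below 0 and median ratio scaling turned Hoxd13. These scalings moved the median of all genes from 0.09 to -0.03 (quantile) and, over the tested genes, -0.01 (median ratio). The Hox median was 0.23.

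Within each number, the proximal library was higher for 7 of 10 tested Hox genes in both numbers, against 43% of all tested genes. No Hox gene was at least 2-fold higher in proximal stroma within both numbers on the log2(FPKM + 1) scale, as 1.9% of tested genes were. Hoxb2 had the largest estimate, 0.85 ± 0.81 (log2 difference ± SE), with proximal values 2.56 times the distal value in number 2 and 1.91 times in number 3. Hoxa13 followed at 0.64 ± 1.67, with 1.88 and 1.84 times. Hoxd11 was at 0.41 ± 0.40, with 1.41 and 1.37 times. Hoxa10 and Hoxa11 were 1.40 and 1.37 times higher in proximal stroma in number 2 and 0.972 and 1.02 times in number 3. Hoxd13 was at 0.02 ± 0.34, with 0.816 and 1.27 times. The SE of Hoxa13 was wide because it takes in the difference between numbers, so a proximal to distal difference of the size seen within numbers was not detectable in this fit.

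**Figure D4:**
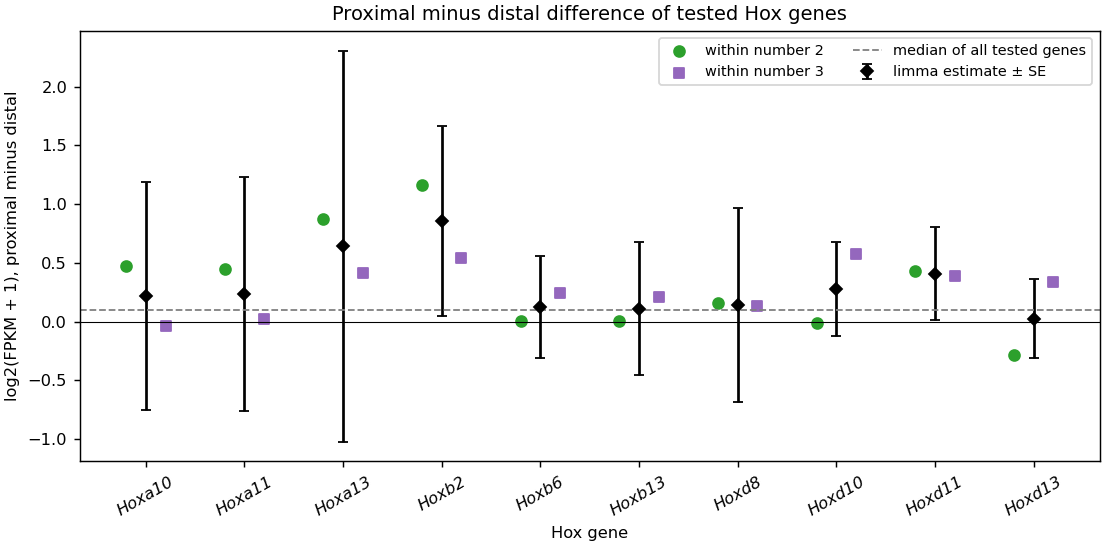
Proximal minus distal difference on the log2(FPKM + 1) scale for each tested Hox gene, as the limma estimate with its SE and as the separate values within libraries numbered 2 and 3. The SE bars of Hoxa13 reach from below 0 to above 2, while its within-number values are 0.87 and 0.41.

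Genes beyond the caudal end of HoxA also stood higher in proximal libraries. Hottip, a long noncoding RNA gene next to Hoxa13 (chromosome 6, 52262775 to 52267603, plus strand) known for holding active chromatin over the caudal HoxA genes, had 1.51 FPKM in distal 2 and 0.303 in distal 3, against 6.45 in proximal 2 and 1.35 in proximal 3. That is 4.27 times higher in number 2 and 4.44 times in number 3, though the regions overlapped across numbers. Evx1, a homeobox gene beyond it (52313498 to 52318378, plus strand), had 0.527 FPKM in distal 2 and 0.0438 in distal 3, against 13.5 in proximal 2 and 2.75 in proximal 3, with no overlap between regions. Its log2 difference was 2.55 ± 0.73 (SE), with an unadjusted p of 0.0166 and an adjusted p of 0.99991 (limma). Evx2, its counterpart beside Hoxd13, had 5.45 FPKM in distal 2 and 2.33 in distal 3, against 6.07 in proximal 2 and 1.45 in proximal 3. Of 8 marker genes of urethral and glandular epithelium, 6 had both proximal values above both distal values, against 13% of all tested genes. Only 2 of the 8, Krt4 and Upk1a, were tested. The 8 summed to 0.397 FPKM (distal 2) and 0.892 (distal 3) against 6.91 (proximal 2) and 11.8 (proximal 3). Krt4 gave 4.41 (proximal 2) and 7.95 FPKM (proximal 3) of this, and Upk1a 1.51 and 2.83. Upk2, Upk3a, Svs2 and Svs5 were listed at 0 in both distal libraries and did not exceed 0.265 FPKM in proximal ones. The part of such epithelium in the Evx1 and Hottip values was not tested.

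Noncoding transcripts inside the clusters followed their neighbours in part. Hoxa11os, antisense to Hoxa11 and overlapping it, had 29.9 FPKM in distal 2 and 8.59 in distal 3, against 57.0 in proximal 2 and 10.3 in proximal 3, a level like that of Hoxa11. Without strand, reads in the stretch that both share cannot be told apart. Of 21 other genes within the clusters or 10 kb of them, 5 reached 1 FPKM in any library: Hoxa11os, Hottip, Evx2, Hotairm1 (highest 1.34 FPKM, in proximal 3) and Hoxb5os (highest 1.38 FPKM, in proximal 2). Hotair, transcribed inside HoxC, did not exceed 0.0341 FPKM. The 6 microRNA hairpins of the clusters were listed at 0, in libraries not made for small RNA.

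Of the 11 TALE homeodomain genes, the class that includes the Pbx and Meis partners of Hox proteins on DNA, all 11 were tested and 0 passed in either direction (limma, over all genes). Their median log2 difference was -0.12, against 0.09 over all tested genes. Pbx4 stood at 1.13 and 0.392 FPKM in distal 2 and 3 against 1.72 and 1.19 FPKM in proximal 2 and 3, and Meis2 at 12.9 and 8.67 against 12.9 and 4.25 FPKM. Tgif1, a TALE repressor and the most abundant of them, stood at 59.0 and 93.7 against 42.6 and 110 FPKM. Meis2 thus reached at least 4.25 FPKM in every library.

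All 24 chromatin regulators of Hox clusters were measured and 23 tested, with 0 passing in either direction, a median of -0.11 and 1 gene at an unadjusted p under 0.05, against 3.16% of all tested genes. That gene was Jarid2, a cofactor of Polycomb repressive complex PRC2, at 19.7 and 18.9 FPKM in the distal and 8.28 and 8.14 FPKM in the proximal libraries (log2 difference -1.14 ± 0.35, SE; adjusted p = 0.99991, limma). Cbx8, a chromodomain subunit of Polycomb, stood at 1.12 and 0.318 against 2.90 and 2.13 FPKM in distal against proximal libraries. Rnf2, the Polycomb ubiquitin ligase, was the most abundant at 26.3 to 41.4 FPKM.

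Among 11 upstream signals and cofactors, 5 were tested and 0 passed in either direction (median 0.20). The caudal factors Cdx1, Cdx2 and Cdx4, which switch on Hox genes in the embryo, were listed at 0 in every library. The retinoic acid receptor genes Rarg and Rarb stood at 20.4 and 8.90 against 27.1 and 12.98 FPKM and at 2.01 and 1.58 against 4.63 and 1.28 FPKM in distal against proximal libraries. Dot1l, a histone methyltransferase, stood at 8.67 and 20.9 against 4.24 and 15.2 FPKM, and Mllt3, its partner and the most abundant, at 33.1 and 10.5 against 37.6 and 12.4 FPKM.

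Of 14 genes flanking the clusters, 12 were measured (Prac1 and Prac2 were not matched), 8 were tested and 0 passed in either direction (median 0.41). Beside Evx1, the largest estimates were those of Hibadh, a metabolic enzyme gene near HoxA, at 44.1 and 19.5 against 54.3 and 32.9 FPKM, and of Calcoco1 near HoxC, at 26.6 and 11.2 against 30.3 and 19.2 FPKM. Calcoco1 was thus well expressed beside a cluster with almost no signal. A list of 44 other developmental factors, mostly homeobox genes, had 14 tested members with 0 passing in either direction (median 0.16) and 2 at an unadjusted p under 0.05, against 3.16% of all tested genes. Its largest estimates were for the zinc finger gene Osr1, at 5.51 and 2.12 against 99.4 and 34.0 FPKM, Msx1, at 31.4 and 32.6 against 53.2 and 81.5 FPKM, and Mkx, at 1.83 and 1.26 against 4.55 and 2.09 FPKM. For Osr1 the log2 difference was 3.72 ± 0.67 (SE) with an adjusted p of 0.589 (limma). Osr2 was the most abundant, at 242 and 105 against 272 and 171 FPKM.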

How the data were processed

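RNA was measured in 4 libraries of sorted prostate stroma, 2 per region. Per the labels' protocols, cDNA was made with a low-input SMART-Seq kit, which amplifies by PCR and does not mark strand, and sequenced on an Illumina instrument. The submitters' processing notes name mm10 and 3 tools, Cufflinks 0.0.6, TopHat2 0.6 and bcl2fastq 1.8.3. The deposited values are FPKM per transcript with lower and upper bounds, per the file headers, beside a coverage signal. The authors' values hold no counts, so depth is known only in relative terms: the median ratio of the deposited coverage signal to FPKM ranged from 5.22 in proximal 2 to 6.34 in distal 3. Between 10148 (distal 3) and 11456 genes (proximal 2) reached 1 FPKM. For transcripts from 1 to 10 FPKM these bounds lay 13.8% to 14.8% from the value (median per library); they cover estimation error within a library only.

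Of 63241 transcripts, 55613 received a gene by their position in GENCODE M21 (same assembly), by span overlap times length similarity of at least 0.8 or, failing that, by ends within 100 bp of exons of 1 gene or a similarity of at least 0.5 to 1 gene with no close rival. Of the 52 Hox transcripts 35 were named by span and length and 0 had a failed status. FPKM was summed per gene, and 7 genes with a failed or capped estimate were left out. Genes with 1 FPKM in at least 2 libraries were tested as log2(FPKM + 1), which understates the change of low genes, with limma 3.58.1 in R 4.3.3 (region as the only term, mean trend, two-sided, Benjamini-Hochberg over 11271 genes, threshold 0.05). With 2 libraries a side, the smallest p of an exact permutation test is 0.333. GC content came from the GENCODE transcript matched to each gene's most abundant transcript (11271 of 11271 tested genes, 39 of 39 Hox genes). Python 3.11.15 and matplotlib 3.10.9 were used for tables and plots.

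The Hox genes, the 5 gene lists and 7 marker lists were chosen with earlier results of these data known. The GC, promoter, library number and cluster neighbourhood comparisons were chosen after values were seen. Named beside the Hox genes are, per list, called members or the 3 largest estimates and the most abundant member, except that some list members are not reported here; others are said to be named after their values were seen. Alternatives were the library number as a block, another pseudocount, no filter, quantile and median ratio scaling, stricter naming and leaving out each library. Beside the markers given with the results, summed levels over the 4 libraries were 1.92 to 3.11 FPKM for leukocytes (6 genes) and 0.209 to 0.556 FPKM for Schwann cells (4 genes).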

Additional observations from a re-analysis of the deposited data

How the results depend on the processing

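The number of Hox genes passing stayed at 0 under every alternative run, and the number at 1 FPKM or more in every library was 6, or 5 to 9 with minimums of 2 and 0.5 FPKM. The Hox median of 0.23 (log2, proximal minus distal) became 0.30 with a pseudocount of 0.1, 0.0631 with no filter (35 genes), 0.17 under quantile normalization, 0.0707 under median ratio scaling (9 genes) and 0.31 with naming by span and length only. Quantile normalization turned Hoxb6 to -0.0463, Hoxb13 to -0.11 and Hoxd8 to -0.0741, and median ratio scaling turned Hoxd13 to -0.14 with factors from all genes above 0 in every library, or -0.0992 with factors from tested genes, which give the other median ratio values between numbers. The cause was not tested. With the library number as a replicate block, 465 genes passed in place of 0 (limma), none of them a Hox gene: the smallest adjusted p was 0.0943, for Hoxb2, and Hoxa13 had 0.142. No label says what a number marks. Deviations from the region means correlated at 0.815 across genes between distal 2 and proximal 2 (0.978 over the tested Hox genes). Log2 values correlated at 0.952 within each number and at 0.911 (distal) and 0.869 (proximal) within regions. Leaving out 1 library leaves 1 number in 1 region, so its estimate mixes region with number: 25 to 54 genes passed and the Hox median ranged from -0.24 (without distal 3) to 0.997 (without proximal 3). The estimate ranged from -0.95 to 1.38 for Hoxa10, -0.95 to 1.42 for Hoxa11, -1.32 to 2.60 for Hoxa13, -0.0957 to 1.803 for Hoxb2, -0.24 to 0.36 for Hoxb6, -0.34 to 0.67 for Hoxb13, -0.70 to 0.997 for Hoxd8 and -0.21 to 0.25 for Hoxd13, and kept its sign for Hoxd10 (0.10 to 0.46) and Hoxd11 (0.31 to 0.51). Estimates turned below 0 without distal 3 for Hoxa10, Hoxa11, Hoxa13, Hoxb6, Hoxd8 and Hoxd13, without proximal 2 for Hoxa10, Hoxa11, Hoxa13 and Hoxb2, without distal 2 for Hoxb13 and without proximal 3 for Hoxd13. The lone library of a region is assumed in these fits to vary like the other region's. With no counts deposited, depth limits how far values under 1 FPKM can be told apart.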
